A study of Mus musculus with 9 samples.

Results

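Macrophages that had shared a culture for 24 h with CT-26, a carcinoma line from mouse colon (group T, arrays T1 to T3) were compared with macrophages kept alone in regular medium for 24 h (group Ctrl, arrays Ctrl1 to Ctrl3). The comparison was defined by the sample titles and took 6 of the 9 arrays of the series. The other 3 arrays hold macrophages that had migrated in the upper chamber of a Transwell with CT-26 cells (group M, arrays M1 to M3). A Transwell is a well split by a porous membrane, and T is labelled as lying in its lower chamber. All groups were peritoneal macrophages of male mice, whose strain, age and genotype are not given in the sources used here, sorted as CD45+ F4/80+ cells. The cell type label calls the T samples migratory, whereas titles, descriptions and protocol give that word to M, and the titles were followed.

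Peritoneal macrophages are tissue-resident phagocytes of the body cavity that can be washed out and kept in culture. Macrophages exposed to tumour cells are known to release growth factors, chemokines and matrix enzymes, and their transcription responds to cytokines, lipid mediators, low oxygen and stress. The comparison asked which RNAs differed after a day beside carcinoma cells. In such bulk samples fewer cells of a type and less RNA per cell cannot be told apart.

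Each array had 59305 spots that were not controls, for 55681 probes. Between 70.0% and 78.6% of probes were well above background on the Ctrl arrays and between 66.1% and 72.3% on the T arrays, with no saturated spot. Ctrl and M shared 1 slide and scan, and the 3 T arrays were together on the other, so group and slide cannot be told apart for any value below. Across probes Ctrl1 and Ctrl2 correlated at 0.99 and each T pair at 0.99 or above, while Ctrl3 correlated at 0.97 with Ctrl1, 0.98 with Ctrl2 and between 0.96 and 0.97 with the T arrays, against 0.92 to 0.94 for Ctrl1. Ctrl3 thus stood apart from the other Ctrl arrays, on the side of T and also of M, with which it correlated at 0.97 to 0.98. Between the arrays of a group, the SD of the median gene was 0.30 log2 units for Ctrl and 0.17 for T. Neither sorting marker differed past the threshold. Ptprc, which encodes CD45, read 0.12, 0.29 and 0.67 in Ctrl and 0.50, 0.24 and 0.42 in T (0.02 ± 0.20, adjusted p 0.94), and Adgre1, which encodes F4/80, read 0.14, 0.41 and 0.997 against 0.46, 0.72 and 0.66 (0.10 ± 0.22, adjusted p 0.75). Here and below a level is log2 of the processed signal minus the array's 75th percentile, so that 0 is the signal at that percentile, and values of different probes are not set against each other.

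Of 18161 genes tested, 8117 (44.7%) differed between T and Ctrl at a limma adjusted p under 0.05, 3191 higher in T (17.6%) and 4926 lower (27.1%). Every T array lay on one side of every Ctrl array for 9721 genes (53.5%). The direction of many small differences depended on the scaling between arrays. Subtracting the array median instead gave 5105 genes higher and 2619 lower, and quantile normalization 4008 and 3629, and the median of all genes moved from -0.14 to 0.28 and 0.00. Genes called higher under all 3 scalings numbered 3174 (17.5%) and those called lower 2280 (12.6%). Leaving out T2 or T3 lowered the count of falls to 3255 and 3167, and leaving out Ctrl1 and Ctrl2 together left 1602 rises and 1685 falls.

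The probe was well above background on all 6 arrays for 16320 genes, and the genes with the widest gaps below were taken from these. Counts by class of level, gene list and name family cover all genes tested, unless stated otherwise. Among the 16320 genes 6684 passed (41%), 2871 higher (17.6%) and 3813 lower (23.4%), and the groups did not overlap for 8259 (50.6%). Called under all 3 scalings were 2854 higher (17.5%) and 1638 lower (10%). Of the 2854, 1434 were at least 2-fold, 317 at least 4-fold and 67 at least 8-fold higher. Of the 1638, 1611 were at least 2-fold, 155 at least 4-fold and 13 at least 8-fold lower. Ctrl3 was the Ctrl array nearest to the T mean for 69.9% of those rises and 84.4% of those falls, so the Ctrl spread ran toward T in most of them. Changes were not spread evenly over probe brightness. With all genes tested in 5 equal classes by level, 1986 fell and 542 rose in the dimmest class. In the middle one 699 fell and 927 rose, and in the brightest 352 fell and 246 rose.

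**Figure D1:**
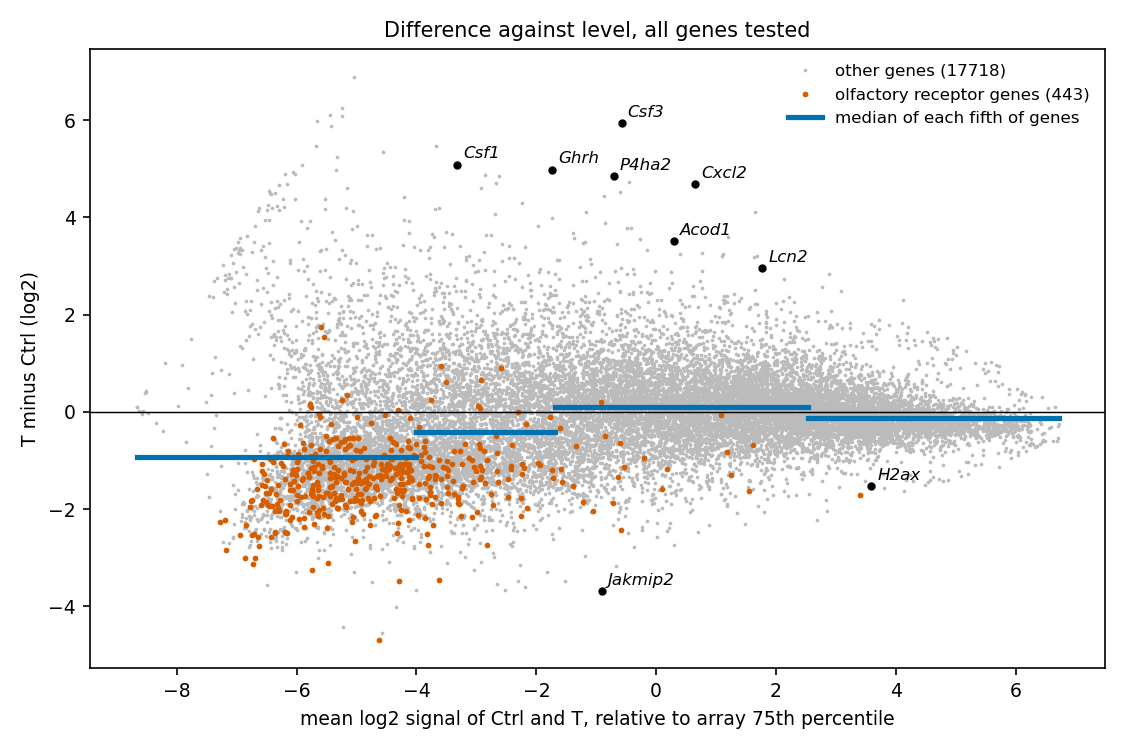
Difference between T and Ctrl (log2, vertical axis) against the mean log2 level of both groups (horizontal axis) for all 18161 genes tested, with 443 olfactory receptor genes in orange and the median of each of 5 equal classes of level as blue lines. The median was -0.92 in the dimmest class and 0.09 in the middle one.

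Of the 15 widest rises, 5 were genes of secreted growth factors and hormones, among them the 3 with the widest gaps. Csf3, which encodes granulocyte colony-stimulating factor, read -3.70, -3.69 and -3.25 in Ctrl and 2.34, 2.44 and 2.39 in T. Every T array was 5.59 or more log2 units above every Ctrl array, and the difference was 5.93 ± 0.17 (SE, n = 3 per group, limma adjusted p 1.7e-07). Csf1, the growth factor on which macrophages themselves depend, went from -6.08, -6.03 and -5.50 to -0.87, -0.72 and -0.77, a difference of 5.08 ± 0.18 (adjusted p 4.1e-07). The Csf1 probe stayed below the 75th percentile of the array in T. Pgf, a placental growth factor that binds a VEGF receptor, went from -2.97, -3.08 and -3.24 to 1.62, 1.22 and 1.20, a difference of 4.45 ± 0.18 (adjusted p 5.2e-07). Fgf18, a fibroblast growth factor, was at -4.25, -4.38 and -4.55 in Ctrl and at -0.19, -0.07 and -0.03 in T (4.30 ± 0.23, adjusted p 1.4e-06). Ghrh, the hypothalamic hormone that releases growth hormone, was at -4.17, -4.06 and -4.43 in Ctrl and at 0.67, 0.86 and 0.75 in T (4.98 ± 0.18, adjusted p 4.1e-07). For none of these 5 genes did an array of one group come within 4 log2 units of the other. The Ghrh probe lies on chromosome 2 from 157155249 to 157155308 of mm9, the Fgf18 probe on chromosome 11 from 33017440 to 33017499, and the Pgf probe on chromosome 12 from 86508335 to 86510337.

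The other wide rises were a chemokine, enzymes and proteins of the cell cortex. Cxcl2, which attracts neutrophils, read -2.20, -1.01 and -1.85 in Ctrl and 3.02, 3.07 and 2.90 in T (4.68 ± 0.28, adjusted p 2.5e-06). P4ha2, a collagen prolyl hydroxylase subunit, read -3.44, -2.96 and -2.99 against 1.76, 1.82 and 1.56 (4.84 ± 0.18, adjusted p 4.1e-07). Sulf2, which trims sulfate from heparan chains at the cell surface, read -6.05, -5.62 and -5.49 against -1.59, -1.51 and -1.45 (4.20 ± 0.24, adjusted p 1.8e-06). Urah and Car6, a urate pathway enzyme and a secreted carbonic anhydrase, differed by 4.52 ± 0.21 and 4.60 ± 0.26, and Sec1, a fucosyltransferase gene, by 3.98 ± 0.16. Plek2 and Vill, a pleckstrin and a villin relative that bind the membrane or actin, differed by 4.85 ± 0.21 and 4.87 ± 0.18, and the endophilin gene Sh3gl3 by 4.71 ± 0.30. Egr1, an immediate early zinc finger factor, varied more in Ctrl (-2.92, -2.02 and -3.52) and stood at 2.10, 1.86 and 1.75 in T (4.72 ± 0.37, adjusted p 1.4e-05). The 15 genes with the widest gaps were 15.8-fold to 61.1-fold higher, and all were below the array's 75th percentile in Ctrl. All kept their call in each of 19 other settings. Among these, median scaling, quantile normalization and the limit to genes above background on all 6 arrays had served in choosing the genes.

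**Figure D2:**
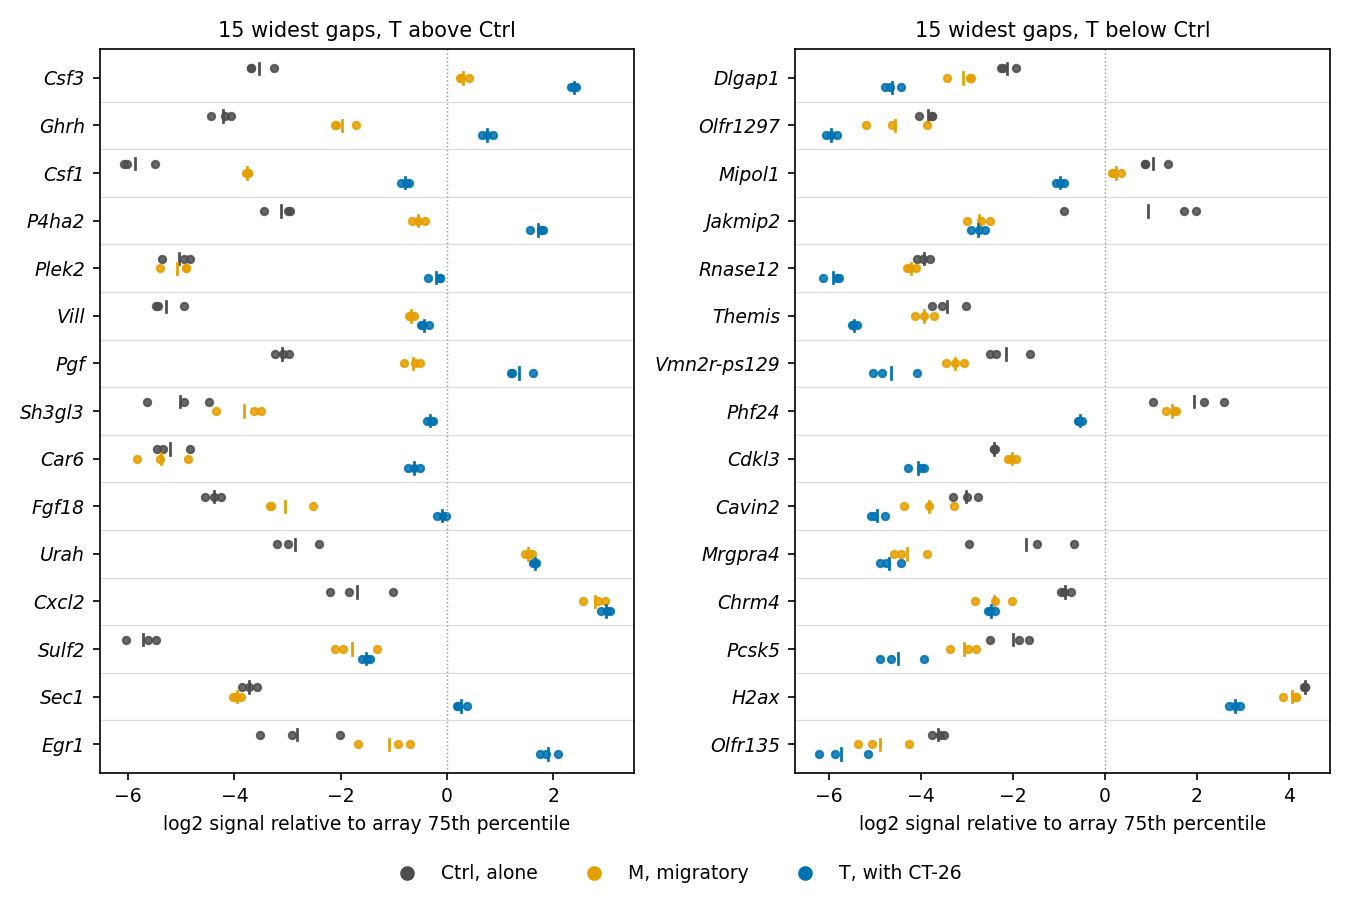
Level of each array (dots) and group mean (bars) for the 15 genes with the widest gap between Ctrl and T in each direction, on the log2 scale relative to the array's 75th percentile. On the left the T dots lie at least 3.76 units above the Ctrl dots, and on the right at least 1.40 units below them, with M between or beside either group.

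The promoters of 13 of these 15 genes could be read from the RefSeq table (GRCm38.p6). Below are the 250 bases before the start, 5′ to 3′, of the 3 genes that hold a match to the NF-kB consensus, and of P4ha2, 1 of 4 genes that hold the core of the hypoxia response element (with Ghrh, Car6 and Sulf2). They are shown as examples of the searched motifs, and whether any match acts in these cells was not tested. Capitals mark every match to a searched motif on either strand. Csf1 lies at chr3:107760470-107760719 (minus strand), Cxcl2 at chr5:90903649-90903898 (plus), Sh3gl3 at chr7:82174546-82174795 (plus) and P4ha2 at chr11:54100674-54100923 (plus).
Csf1: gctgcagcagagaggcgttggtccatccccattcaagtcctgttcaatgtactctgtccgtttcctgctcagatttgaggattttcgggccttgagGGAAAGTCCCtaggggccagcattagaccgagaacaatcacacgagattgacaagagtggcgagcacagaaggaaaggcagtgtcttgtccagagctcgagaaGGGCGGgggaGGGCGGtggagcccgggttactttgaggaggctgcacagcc
Cxcl2: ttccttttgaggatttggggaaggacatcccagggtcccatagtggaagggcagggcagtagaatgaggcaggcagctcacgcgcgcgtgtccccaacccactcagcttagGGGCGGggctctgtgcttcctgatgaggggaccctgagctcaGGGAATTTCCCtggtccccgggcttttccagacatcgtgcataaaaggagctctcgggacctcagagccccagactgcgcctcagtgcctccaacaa
Sh3gl3: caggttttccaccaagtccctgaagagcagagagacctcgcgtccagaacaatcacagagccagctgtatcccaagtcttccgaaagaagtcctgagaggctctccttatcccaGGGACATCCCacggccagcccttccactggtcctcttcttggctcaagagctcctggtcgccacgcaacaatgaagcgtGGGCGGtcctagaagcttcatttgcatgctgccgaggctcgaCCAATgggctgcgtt
P4ha2: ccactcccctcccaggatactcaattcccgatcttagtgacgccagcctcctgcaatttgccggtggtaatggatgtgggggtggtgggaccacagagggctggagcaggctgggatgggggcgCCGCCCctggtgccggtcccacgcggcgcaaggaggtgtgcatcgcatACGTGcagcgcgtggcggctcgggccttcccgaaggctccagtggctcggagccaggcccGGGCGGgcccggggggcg
Counted back from the start, the NF-kB match begins at position -154 in Csf1 and -136 in Sh3gl3, and at -97 and -96 in Cxcl2, where matches on both strands overlap. The hypoxia core ACGTG begins at -78 in P4ha2. The GC box GGGCGG is marked in all 4, and the CCAAT box in Sh3gl3 at -15. Searched on both strands and not found in these 4 windows were the TATA box (TATAAA), the AP-1 site (TGANTCA), the core of the cAMP element (TGACGT), which can overlap the hypoxia core, the PU.1 core (GAGGAA), the cell cycle homology region (TTTGAA) and the CArG box by its consensus.

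Motif shares were counted over genes at least 4-fold higher under all 3 scalings (317 genes, 231 matched, 310 promoters), against the 16582 promoters of 13300 tested genes. The NF-kB consensus was in 8.39% of the former and 4.46% of the latter, the CArG box in 3.23% and 1.31%, TGANTCA in 7.42% and 5.38%, and ACGTG in 23.2% and 19.5%. Over all 32851 promoters of the table the shares were 3.90%, 1.47%, 6.75% and 16.6%. Promoters of genes at least 4-fold lower (155 genes, 112 matched, 135 promoters) held GGGCGG in 23.7%, against 49.4% in the rises and 49.4% in all tested, and TATAAA in 21.5%, against 11.9% and 8.85%. These shares are descriptions, with no test.

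The widest falls were smaller, between 2.88-fold and 12.9-fold. Dlgap1, a postsynaptic scaffold gene, read -1.94, -2.21 and -2.26 in Ctrl and -4.67, -4.43 and -4.77 in T, a difference of -2.49 ± 0.20 (adjusted p 1.6e-05). The other tested probe of Dlgap1 differed by 0.65, the opposite way, and the mean of both by -0.92. Mipol1 read 0.87, 0.88 and 1.36 against -0.90, -1.07 and -0.98 (-2.02 ± 0.18, adjusted p 3.5e-05). H2ax, the histone variant that marks DNA breaks, read 4.36, 4.33 and 4.35 against 2.93, 2.69 and 2.83 (-1.53 ± 0.16, adjusted p 8.5e-05). The 15 were chosen by the gap between the groups, which ran from 1.40 to 2.17 log2 units. Jakmip2 had the widest Ctrl spread, at 1.98, 1.73 and -0.90, against -2.61, -2.75 and -2.92 in T (-3.69 ± 0.61, adjusted p 0.0013), so Ctrl3 carried much of the lesser distance. Phf24, a gene expressed in brain, read 2.59, 2.16 and 1.04 against -0.49, -0.58 and -0.57, with the lowest Ctrl value again on Ctrl3. The rest were mostly genes that macrophages are not known for, among them the olfactory receptor genes Olfr1297 and Olfr135, the vomeronasal pseudogene Vmn2r-ps129, the sensory neuron receptor gene Mrgpra4, the muscarinic receptor gene Chrm4, the T cell signalling gene Themis and the ribonuclease gene Rnase12. Only 4 of the 15, Mipol1, Jakmip2, Phf24 and H2ax, had a Ctrl mean above the 75th percentile of the array.

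Genes whose probe lay above the 75th percentile on every Ctrl array were set out apart, a choice made after the values were seen. They numbered 7522, of which 870 were higher (11.6%) and 976 lower (12.98%), and 861 and 163 under all 3 scalings. Among the rises, Lcn2, which binds bacterial iron carriers, read 0.37, 0.20 and 0.33 in Ctrl and 3.23, 3.28 and 3.24 in T (2.95 ± 0.15, adjusted p 1.0e-06). Cyclooxygenase 2, which makes prostaglandins and is encoded by Ptgs2, read 0.10, 0.75 and 0.76 against 2.77, 2.72 and 2.78 (2.22 ± 0.21, adjusted p 5.1e-05). Id2, a partner that blocks DNA binding by other factors, read 0.44, 0.92 and 1.03 against 2.82, 2.93 and 2.85, and Dusp6, a phosphatase of the ERK kinases, 0.54, 0.75 and 0.92 against 2.47, 2.46 and 2.46. In each of these, chosen for a gap between the groups, the T arrays lay close together. Rnf217, Ecm1, Fam20c, Slc39a4 and Tmbim6 rose by 1.85 to 2.36 log2 units. The rise of Vps8 (2.28) rests on 1 probe, since its 3 other tested probes differed by -0.24 to 0.21.

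Among the bright falls, genes of DNA repair and chromatin stood beside a gene of vesicle trafficking. Vps45, which serves vesicle fusion, read 3.77, 3.62 and 4.05 in Ctrl and 2.18, 2.34 and 2.30 in T (-1.55 ± 0.17, adjusted p 0.00012). Rad51b, a recombination repair gene, read 1.18, 1.63 and 1.70 against -0.58, -0.09 and -0.21 (-1.79 ± 0.21, adjusted p 0.00019). Mnd1, which acts in meiotic recombination, read 4.27, 4.02 and 4.28 against 2.83, 2.73 and 2.74 (-1.43 ± 0.19, adjusted p 0.00040). Hirip3, a histone-binding gene, and Prr11, a gene of late cell cycle, fell by 1.37 ± 0.21 and 1.34 ± 0.15. Zfp346, Cmss1, Rgl1 and Tbc1d31 fell by 1.27 to 1.45. Hmgn5, which binds nucleosomes, fell by 1.28 ± 0.28, a call that ended without Ctrl1 and Ctrl2 together (adjusted p 0.076). These genes were chosen for a gap between the groups, so by choice no T array overlapped a Ctrl array. Among the bright falls named above the T values lay close together, with Rad51b the most spread. Tmem178b, another bright fall, was more spread, at -0.72, 0.08 and 0.21 in T.

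**Figure D3:**
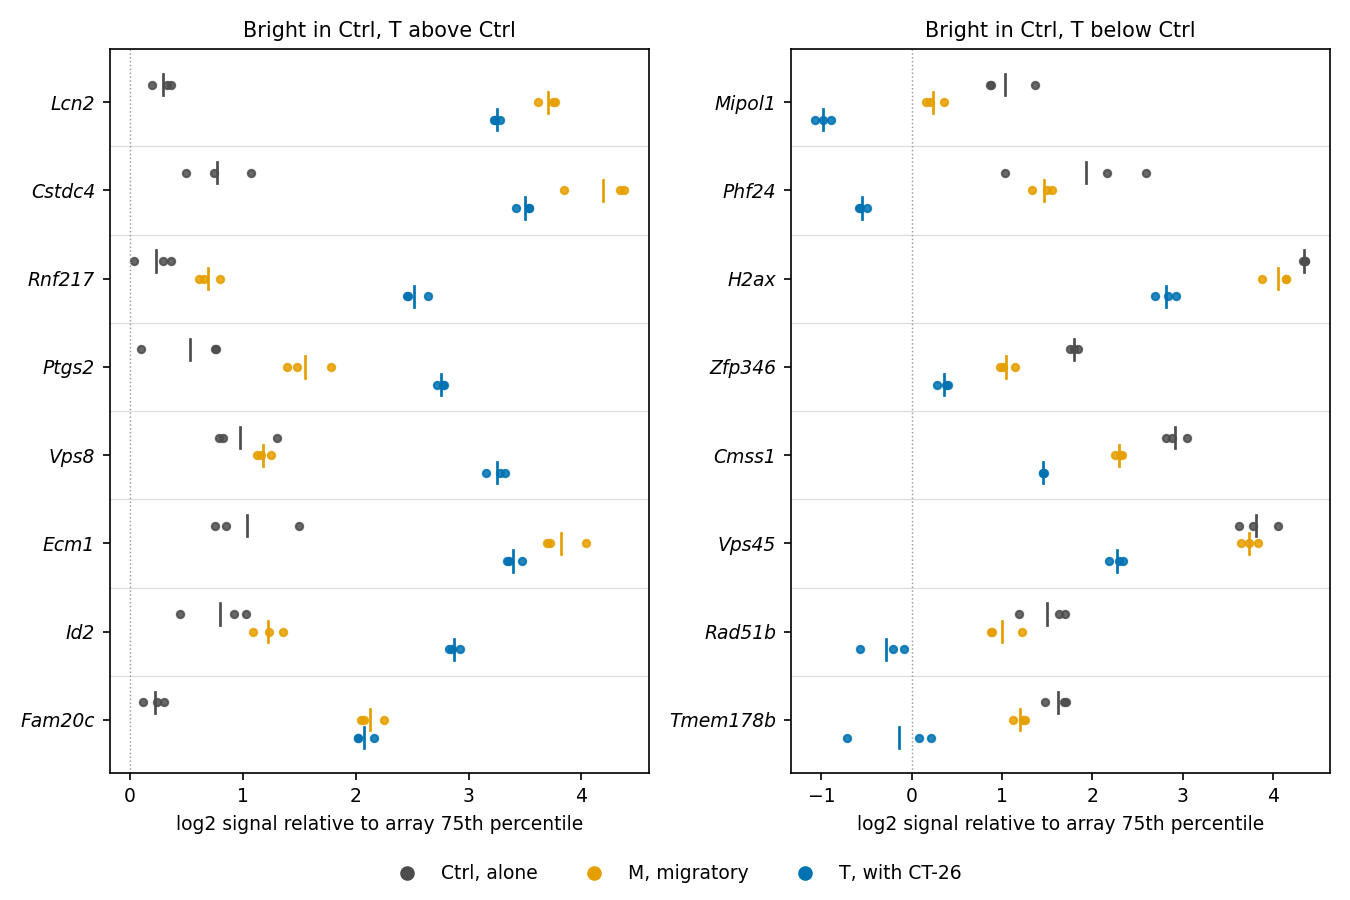
Level of each array (dots) and group mean (bars), on the log2 scale relative to the array's 75th percentile, for the 8 widest gaps in each direction among genes above that percentile on every Ctrl array. The T dots lie apart from the Ctrl dots in every gene, and M lies near Ctrl for Rnf217 and Vps8, and near T for Fam20c.

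Sets of related genes were then described by how many of their tested members passed, beside the 17.6% of all genes that rose and the 27.1% that fell. Where leaving out a single array moved a count above 3 by more than 1.5 times, the array is named, and smaller counts moved by up to 4, or by 11 for ribosomal proteins. Over all lists 358 distinct members were higher and 245 lower, and 526 and 94 under median scaling. Of 21 secreted growth factors and colony-stimulating factors, 13 rose and 3 fell, with a median difference of 1.40 against -0.14 over all genes. With any single array left out the rises stayed at 13 or 14. In the TNF superfamily of death and survival ligands and receptors, 13 of 22 rose and 3 fell, and 8 rose without T3. Tnf itself, bright in all arrays, read 2.72, 2.88 and 2.70 in Ctrl and 3.998, 3.79 and 3.85 in T (1.11 ± 0.15, adjusted p 0.00047). The death receptor gene Fas rose by 2.58 ± 0.26 and Tnfsf13b, the B cell survival factor BAFF, by 1.90 ± 0.19. Of 17 genes of the families of interleukins 6, 10 and 12, 9 rose and 4 fell, with Il23a up by 1.82 ± 0.22, Osm by 1.62 ± 0.17 and Lif by 1.79 ± 0.32. The falls among them numbered 1 without Ctrl1 and 2 without Ctrl2, T2 or T3. In the interleukin-1 family and inflammasome, 6 of 18 rose and 2 fell. Il1b read -4.40, -4.58 and -5.21 against -1.74, -1.51 and -1.56 (3.13 ± 0.23, adjusted p 1.1e-05), and its antagonist gene Il1rn and the inflammasome sensor gene Nlrp3 rose by 1.88 ± 0.21 and 1.97 ± 0.23.

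Transcription factors and feedback regulators of signalling were often among the rises. Of 34 KLF, EGR and AP-1 factors 17 rose and 3 fell, with a median of 0.56. Myc, which drives growth, read -3.41, -3.33 and -2.73 in Ctrl and 0.27, 0.46 and 0.55 in T (3.58 ± 0.21, adjusted p 2.7e-06), and the AP-1 member Fosl1 rose by 2.87 ± 0.19. Of 21 MAP kinase phosphatases, Sproutys and related brakes on the pathway, 12 rose and 2 fell. Dusp5 read -2.03, -2.17 and -1.54 against 0.67, 1.09 and 1.04 (2.85 ± 0.21, adjusted p 9.8e-06), and Dusp1 -0.20, -0.02 and -0.19 against 1.51, 1.62 and 1.59 (1.71 ± 0.15, adjusted p 2.7e-05). In both phosphatases, named for their gap between the groups, the 3 T arrays lay above all Ctrl arrays. Of 30 NF-kB subunits and inhibitors 12 rose and 0 fell (0 also at an unadjusted p under 0.05 and with limma's trend and robust settings), among them Traf1 by 1.69 ± 0.21, Rel by 1.70 ± 0.22 and Ikbke by 1.26 ± 0.21. The rises numbered 8 without Ctrl2, 17 without Ctrl3 and 4 without Ctrl1 and Ctrl2 together. Of 27 SOCS and STAT feedback genes 12 rose and 2 fell, led by the cytokine inhibitor Cish (2.30 ± 0.16) and the kinase Pim2 (2.16 ± 0.20), and 7 rose without Ctrl1, T2 or T3.

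Genes that respond to cAMP and glucocorticoid were more often higher than lower, and genes of the TGF-beta pathway went both ways. Of 30 cAMP-responsive genes 13 rose and 3 fell, and Rgs16, which shortens G protein signals, rose by 2.02 ± 0.21. Of 19 glucocorticoid-responsive genes 9 rose and 2 fell, and the kinase gene Sgk1 read -2.79, -2.95 and -3.11 in Ctrl and 0.34, 0.69 and 0.55 in T (3.48 ± 0.19, adjusted p 1.6e-06). Of 40 TGF-beta and BMP ligands, receptors and SMADs 14 rose and 8 fell, and 5 fell without Ctrl1, T2 or T3. The pathway inhibitor Smad7 rose by 2.53 ± 0.24, while the co-receptor gene Tgfbr3 fell by 1.78 ± 0.20 and the BMP receptor gene Bmpr1b fell by 2.06 ± 0.30. Ligand Tgfb3 rose by 2.13 ± 0.17, a call that ended with the deposited value table (adjusted p 0.25). In the core circadian clock 8 of 21 rose and 3 fell, with Rora up by 1.84 ± 0.25, Bhlhe40 by 1.67 ± 0.17 and Arntl, which encodes BMAL1, by 1.56 ± 0.26. Without Ctrl1, T2 or T3, 5 clock genes rose.

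Of 31 p53 targets and DNA damage genes, 15 rose and 3 fell, and 12 to 16 rose with any single array left out. Plk2, a kinase induced by stress, read -0.50, 0.10 and 0.30 in Ctrl and 2.12, 2.35 and 2.36 in T (2.31 ± 0.23, adjusted p 7.8e-05), whereas the lysosomal autophagy gene Dram1 fell by 1.09 ± 0.17. Among the 31 BCL2 family and caspase genes 8 rose and 4 fell, with 5 rises without Ctrl1 or T3 and 1 fall without Ctrl1, T2 or T3. Bik, which promotes cell death, went from -4.41, -4.43 and -4.73 to -1.43, -1.35 and -1.40 (3.13 ± 0.20, adjusted p 4.8e-06). Both Plk2 and Bik were named for the gap between the groups. Of 38 integrated stress response genes 11 rose and 3 fell, with the cystathionine lyase gene Cth up by 1.71 ± 0.22. Among 30 unfolded protein response genes 5 rose and 6 fell. Without Ctrl1, T2 or T3 these counts were 3 and 1, without Ctrl2 3 and 2, and under median scaling 9 and 1. Of 35 NRF2 targets 8 rose and 2 fell, with the heme oxygenase gene Hmox1 up by 1.11 ± 0.20, and 5 rose without T3.

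Receptors and soluble defences moved in both directions. Of 24 Toll-like receptors and adaptors 10 rose and 2 fell, with Tlr6 up by 2.08 ± 0.30 and Cd180 by 1.76 ± 0.20. Of 20 Fc receptors and C-type lectins 8 rose and 4 fell, and Fcgr3, an activating receptor for IgG, read -0.16, -0.31 and 0.28 against 2.35, 2.34 and 2.27 (2.38 ± 0.25, adjusted p 8.6e-05). Among 22 complement genes 7 rose and 7 fell. The central component C3 rose by 2.28 ± 0.17 and the receptor gene C5ar2 by 1.68 ± 0.20, whereas C1qa, a subunit of the initiating complex, fell by 1.26 ± 0.20. Of 24 coagulation and plasminogen genes 9 rose and 3 fell. Tissue factor, the trigger of clotting encoded by F3, read -4.37, -3.52 and -3.30 against -1.35, -0.62 and -0.98 (2.74 ± 0.32, adjusted p 0.00020). Plat, a plasminogen activator, rose by 2.80 ± 0.17. Of 26 prostaglandin and leukotriene genes 8 rose and 8 fell, 3 of these falls under all 3 scalings, and 5 fell without Ctrl1 or T2. Beside Ptgs2, the synthase genes Hpgds and Alox5 rose by 2.09 ± 0.21 and 1.84 ± 0.20, while the prostacyclin synthase gene Ptgis fell by 1.83 ± 0.42 and the receptor gene Ptger1 by 1.83 ± 0.32. Among 18 purine signalling genes 7 rose and 4 fell, with the adenosine receptor gene Adora3 up by 1.93 ± 0.22 and the nucleotide receptor gene P2ry2 by 1.73 ± 0.22, and 2 fell without T2. Of 20 genes of antigen presentation by MHC class II 5 rose and 1, H2-Ob, fell, and of 25 of class I 1 rose and 3 fell (5 and 2 without Ctrl3, 6 and 1 under median scaling).

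Among metabolic genes the widest rises were single enzymes. Acod1, which makes itaconate, read -1.25, -1.46 and -1.66 in Ctrl and 2.09, 2.05 and 2.02 in T (3.51 ± 0.16, adjusted p 9.0e-07), while of the 34 genes of its list, with the tricarboxylic acid cycle, 5 rose and 3 fell, and 3 rose without Ctrl1, Ctrl2, T1, T2 or T3. Of 29 glycolytic genes 7 rose and 0 fell (1 at an unadjusted p under 0.05 and 1 with trend and robust settings), with the regulator Pfkfb3 up by 1.16 ± 0.20 and the hexokinase Hk3 by 1.35 ± 0.20. The rises numbered 3 without Ctrl1, Ctrl2 or T3, 4 without T1 or T2 and 11 without Ctrl3. In fatty acid synthesis, storage and oxidation 9 of 39 rose and 11 fell, 13 and 3 under median scaling, with 4 rises without Ctrl1 or T3, 5 without T2, and 7 falls without T3. Only 3 of the falls held under all 3 scalings. Triglyceride synthesis genes Gpat3 and Dgat2 rose by 2.59 ± 0.22 and 2.28 ± 0.18, and Hilpda, which inhibits lipolysis in lipid droplets, by 1.40 ± 0.18, while the desaturase gene Fads1 fell by 1.06 ± 0.14 and G0s2, another lipolysis inhibitor, by 1.36 ± 0.24. The mitochondrial arginase gene Arg2 read -2.66, -2.23 and -2.37 against -0.23, 0.03 and -0.09 (2.32 ± 0.17, adjusted p 9.6e-06). Of 30 sterol genes 3 rose and 8 fell, a count of falls that was 0 under median scaling, 3 without T2 and 5 without Ctrl1 or Ctrl2. Of 28 iron and metal genes 8 rose and 6 fell, with the zinc and iron importer gene Slc39a14 up by 1.31 ± 0.17. Lysosomal genes rose in 13 of 65 and fell in 2, with the calcium channel gene Mcoln1 up by 0.95 ± 0.16, and 6 rose without Ctrl1, 8 without T2 and 7 without T3. Of 46 autophagy genes 11 rose and 3 fell, with Wipi2, which acts at the forming autophagosome, up by 1.75 ± 0.26, and 7 rose without T3.

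Few genes of protein synthesis and respiration passed. Of cytosolic ribosomal protein genes 0 of 80 and 0 of 75 respiratory chain genes passed (limma). At an unadjusted p under 0.05, 1 and 5 were lower and 0 were higher, and with trend and robust settings 1 and 3 were lower. Without T1, 11 ribosomal protein genes and 2 respiratory chain genes were lower, and under median scaling 5 respiratory chain genes were higher. Among the 80 the differences ran from -0.59 to 0.02, with a median of -0.29. Of 43 tRNA synthetase and initiation factor genes 2 rose and 1 fell. By contrast, 21 of 61 ribosome biogenesis genes fell and 2 rose, with Nle1, a factor of the large subunit, read at 3.66, 3.28 and 3.31 in Ctrl and 2.45, 2.19 and 2.29 in T (-1.11 ± 0.19, adjusted p 0.0019). Of 49 S phase and mitosis genes 21 fell and 4 rose. The spindle checkpoint gene Bub1b read 2.81, 2.94 and 3.00 against 1.61, 1.86 and 1.82 (-1.16 ± 0.16, adjusted p 0.00048), while Cdc6, which loads replication origins, rose by 0.89 ± 0.17, a call that ended with the deposited value table (adjusted p 0.14). Under median scaling 3 ribosome biogenesis genes rose and 1, Nle1, fell, and 10 S phase and mitosis genes rose and 1, Bub1b, fell. The falls numbered 12 and 13 without T2, and those of ribosome biogenesis 13 without T3.

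**Figure D4:**
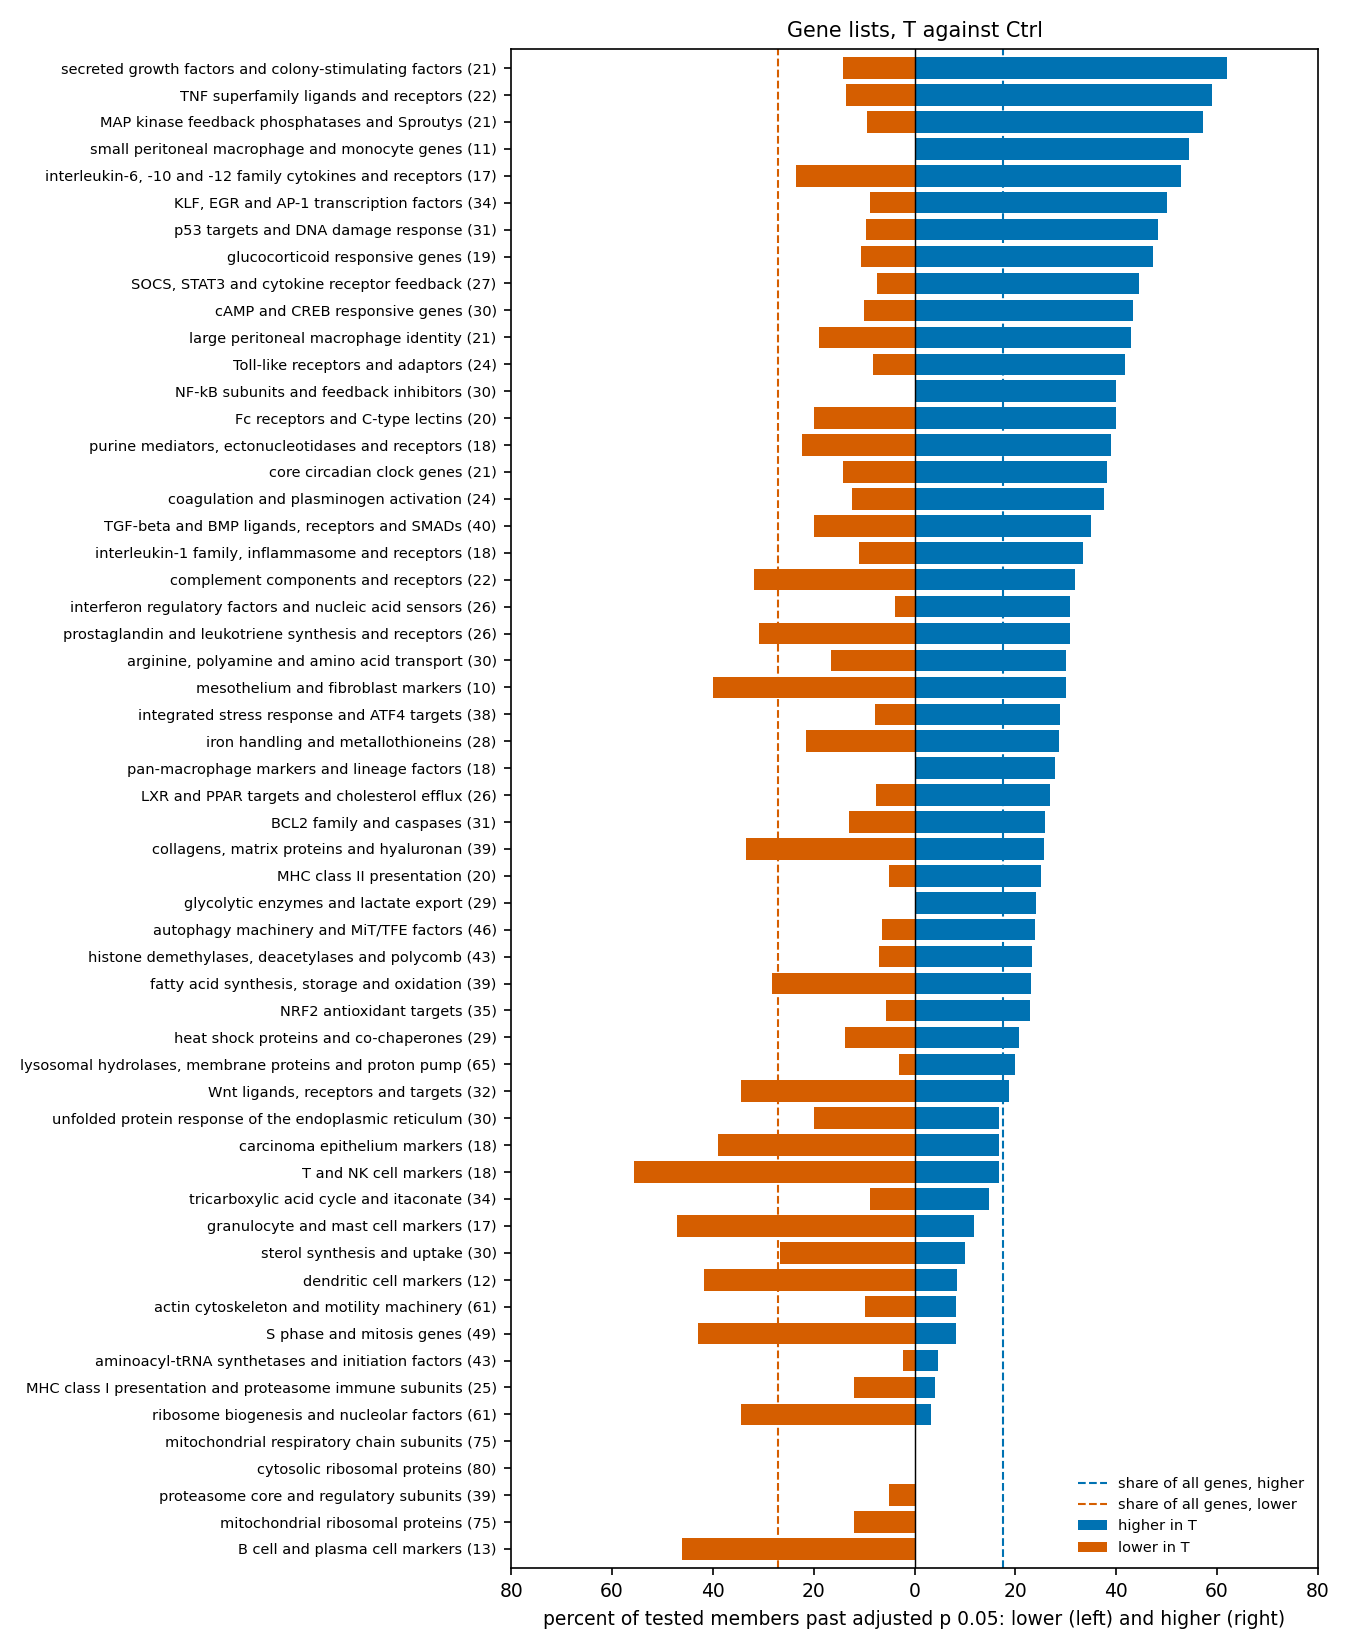
Percent of the tested members of each of 56 gene lists that passed an adjusted p of 0.05 higher in T (right, blue) or lower (left, orange), with the number tested in parentheses. Dashed lines mark the 17.6% and 27.1% of all genes that rose and fell. Growth factors, the TNF superfamily and MAP kinase phosphatases lie at the top, and ribosomal proteins and the respiratory chain have no bar.

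Genes of matrix, motility and Wnt signalling went both ways. Of 39 collagen and matrix genes 10 rose and 13 fell, of 32 Wnt genes 6 rose and 11 fell, with Wnt7a down (-1.67 ± 0.27), and of 61 actin and motility genes 5 rose and 6 fell. The balance turned with the scaling. Under median scaling 15 matrix genes rose and 9 fell, 11 Wnt genes rose and 8 fell, and 11 motility genes rose and 3 fell, and quantile normalization gave 13 and 8, 8 and 5, and 7 and 4. For the matrix genes 8 fell without Ctrl1 and 6 rose without T3. For the Wnt genes 6 fell without Ctrl1, Ctrl2 or T3 and 7 without T2, and 2 rose without T2 or T3. For the motility genes 2 fell without Ctrl1, Ctrl2 or T2, and 8 rose without Ctrl3. The focal adhesion gene Zyx rose by 1.45 ± 0.23. Of 43 histone demethylase, deacetylase and polycomb genes 10 rose and 3 fell, with the H3K27 demethylase gene Kdm6b up by 1.22 ± 0.22.

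Values of some named genes moved by over 1.5 times in another setting without losing their call. The mean of all tested probes gave -0.59 for Ltbp1, 0.52 for Mcoln1, -0.85 for Rgl1 and -2.46 for Jakmip2. Normexp background correction gave -1.23 for Bmpr1b, 1.13 for Hpgds, 1.81 for Mertk, 1.83 for Plat and -1.07 for Wnt7a. Median scaling gave -0.73 for Bub1b, -0.83 for C1qa, -0.67 for Dram1, -0.64 for Fads1 and -0.69 for Nle1. The authors' deposited values gave larger rises of 4.91 for Il1b, 2.89 for Il1rn, 2.69 for Lif, 4.03 for Saa3 and 3.00 for Adora3, and a smaller one of 2.41 for Krt19. Without Ctrl1 and Ctrl2 together the values were -0.86 for G0s2, -1.86 for Jakmip2, 0.69 for Kdm6b, -1.58 for Phf24, -1.05 for Ptger1, -0.91 for Ptgis and 0.90 for Zyx.

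Macrophage identity genes that passed were more often higher than lower. Of 18 pan-macrophage markers and lineage factors 5 rose and 0 fell (1 fell at an unadjusted p under 0.05 and 1 with trend and robust settings), and 3 rose without Ctrl1, Ctrl2, T1 or T3. Mertk, a receptor for dying cells, read -5.63, -5.12 and -5.78 in Ctrl and -2.84, -2.83 and -2.62 in T (2.75 ± 0.20, adjusted p 8.7e-06). Of 21 genes of large peritoneal macrophages 9 rose and 4 fell, with the acute phase gene Saa3 up by 2.60 ± 0.28 and the latent TGF-beta binding gene Ltbp1 down (-1.12 ± 0.20). Of 11 genes of small peritoneal macrophages and monocytes 6 rose and 0 fell (1 at an unadjusted p under 0.05 and 0 with trend and robust settings), with Clec10a up by 1.68 ± 0.16 and Fcgr4 by 1.98 ± 0.22.

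Over 6 lists of markers of other cells, 40 of 88 members were lower, 12 higher and 36 did not pass. A marker could enter the test through 1 group alone, where it was high. Falls above background in Ctrl but not on every T array were Epcam, Ocln, Kit, Ngp, Prg2, Siglecf, Ebf1, Cd2, Cd247, Cd3g, Gzma and Ly75. Above background on all 6 arrays were 15 carcinoma, 9 mesothelium and fibroblast and 13 granulocyte and mast cell markers. For B cells they numbered 12, for T and NK cells 13 and for dendritic cells 11. Over all genes 27.1% were lower, from 54.7% in the dimmest class to 9.69% in the brightest, and the markers were of mixed brightness. Median scaling gave 18 markers higher and 18 lower, and 12 and 16 held under all 3 scalings. Markers of carcinoma epithelium numbered 18, of which 3 rose and 7 fell (4 and 3 under median scaling). Their summed linear signal, in multiples of the array's 75th percentile and weighted to its brightest probes, was 6.20 to 8.23 in Ctrl and 5.30 to 5.76 in T. Krt19, a simple epithelial keratin, read -4.18, -4.49 and -5.29 in Ctrl and -1.17, -1.03 and -0.87 in T (3.63 ± 0.27, adjusted p 1.1e-05) and -5.35 on average in M. Elf3 rose by 1.46 ± 0.18, a call that ended with the deposited value table (adjusted p 0.58), and Vil1 by 0.84 ± 0.28, a call that ended in 9 of 19 settings (adjusted p 0.0501 to 0.292), among them leaving out Ctrl1, Ctrl2, T1, T2 or T3. Epcam fell by 1.60 and was well above background on all Ctrl arrays and on 2 of 3 T arrays, and Krt18 differed by -0.10 without passing. The part of carcinoma RNA in the T values was not tested. For 10 mesothelium and fibroblast markers, of which 3 rose and 4 fell, the sum was 0.448 to 0.620 in Ctrl, 1.16 to 1.22 in T and higher still in M, up to 2.44, and the falls numbered 0 without Ctrl1 or T2, 1 without T3 and 2 without Ctrl2. Under median scaling 3 rose and 0 fell. The rises were Krt19, the PDGF receptor gene Pdgfrb, which was well above background on 0 Ctrl arrays and on 3 T arrays, and Pdpn, and the other tested probe of Pdpn differed by -1.36, past the threshold. Krt19 gave 5.69% to 44.8% of the sum over the Ctrl and T arrays. Pdpn was lower in T than in M (-2.29). All members other than these rises differed downward between T and Ctrl, by -1.04 to -0.27. For 17 granulocyte and mast cell markers, 2 rose and 8 fell (4 and 4 under median scaling), and S100a8 rose by 3.06 ± 0.21. Their sum, 16.2 to 26.0 in Ctrl and 18.8 to 24.2 in T, was mostly 1 probe, Csf3r, which gave 89.9% to 95.5% of it. The brightest probe likewise gave 42.3% to 71.2% of the sum for T and NK cells (Prf1), 51.6% to 67.1% for B cells (Cd22) and 53.8% to 65.7% for dendritic cells (Siglech). T and NK cells had 18 markers, of which 3 rose and 10 fell. Their sum was 36.7, 27.5 and 14.2 in Ctrl, 12.2 to 15.6 in T and 12.6 to 14.7 in M, so Ctrl3 lay with T and M. Of 13 B cell markers 6 fell and 0 rose (0 also unadjusted and with trend and robust settings), and of 12 dendritic cell markers 1 rose and 5 fell, with sums of 23.2 to 26.7 and 64.9 to 81.8 in Ctrl against 19.5 to 27.3 and 55.2 to 76.6 in T. The falls were fewer with an array left out: 4 epithelial ones without Ctrl2, T2 or T3, 5 granulocyte ones without Ctrl1, Ctrl2, T2 or T3, 5 T and NK ones without Ctrl2 or T2 and 4 without T3. B cell falls numbered 2 without T2 and 3 without T3, and dendritic ones 3 without Ctrl1, Ctrl2, T2 or T3.

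Gene families known mainly from sensory organs and surface epithelia fell broadly, families chosen after their values were seen. Of 443 olfactory receptor genes tested 366 fell (82.6%) and 4 rose, 253 and 4 under all 3 scalings. The median over these genes was -3.89, -4.04 and -4.49 for Ctrl, -5.12, -5.52 and -5.73 for T, and between -5.12 and -4.57 on the M arrays. A gene could enter the test through 1 group alone, where its probe was high, and the shares over all tested members include such genes. Of the 238 olfactory receptor genes well above background on all 6 arrays, 189 fell (79.4%). Of 71 vomeronasal receptor genes 55 fell, of 24 beta-defensins 18 and of 42 keratins 27, with 32, 10 and 19 under all 3 scalings. Among members well above background on all 6 arrays, 29 of 42, 11 of 14 and 26 of 38 fell, against 23.4% of all such genes. Of all genes tested 27.1% fell, and of the dimmest class 54.7%. Brighter families had other shares, with 55 falls and 68 rises among 344 zinc finger genes named Zfp and 76 falls and 80 rises among 296 solute carriers. The probes of the olfactory receptors were dim, with a median level over Ctrl and T of -4.84. The array median relative to the 75th percentile was -3.71 to -3.36 in Ctrl, -4.03 to -3.76 in T and -3.91 to -3.66 in M. What set the level of the probes of these families was not tested.

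The level in T was also set beside that in migratory macrophages, in a contrast that shares the T arrays with the comparison above. Of all genes 4626 differed (25.5%), 1961 higher in T (10.8%) and 2665 lower (14.7%). Of the 15 widest rises 11 were also higher in T than in M and 0 lower, and of the 15 widest falls 11 were lower in T than in M and 0 higher. Plek2 differed by 4.87 from M (adjusted p 3.8e-07), Car6 by 4.76 and Sec1 by 4.21, and for all 3 the M arrays lay near the Ctrl arrays, with Plek2 at -4.91, -4.90 and -5.41 on M1 to M3. Csf3, Csf1 and P4ha2 lay between, with Csf3 at 0.42, 0.27 and 0.24 in M and 2.08 above that in T. Vill, Urah, Cxcl2 and Sulf2 differed from M by 0.12 to 0.28 without passing (adjusted p 0.36 to 0.73). Cdkl3 was lower in T than in M by 2.05 (-2.05, adjusted p 1.5e-05) and stood at -2.10, -1.92 and -2.04 on the M arrays. Jakmip2 differed from M by -0.03 (adjusted p 0.98), with M as low as T. Of the 2854 rises called under all 3 scalings and well above background, 1207 were also higher in T than in M and 192 lower, and of the 1638 falls 463 were lower in T than in M and 0 higher. Adgre1 was at 3.28, 3.33 and 3.52 in M, 2.76 log2 units above T (T minus M -2.76).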

How the data were processed

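Agilent 1-colour arrays labelled with Cy3 measured total RNA of 9 samples, grouped by title. The submitters' processing notes name Agilent Feature Extraction 10.7.3.1 for the images. The authors' scanner files hold for every spot an intensity, the processed signal, from which background is already taken off; per the file headers, arrays were not put on a common scale. The deposited value table mixes a linear intensity scale (4 columns) and a log2 scale (5 columns), its scale was inferred from the values, its T2 column matches no scanner file, and it served only as an alternative. The build of the probe positions is mm9, per the file headers.

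Control and outlier spots were dropped, spots of a probe were averaged, and log2 of the signal minus the array's 75th percentile was taken. Probe accessions matched the RefSeq gene table (GRCm38.p6) for 26756 of 55681 probes, 5671 kept the array's name, and 23254 had no symbol and were left out. A probe was tested where well above background on all 3 arrays of a group, and the brightest tested probe stood for its gene. Another probe of the gene went the opposite way, past the threshold, for 6 of 241 named genes. Group means over all 9 arrays were fitted with limma 3.58.1 (R 4.3.3, lmFit and eBayes), with Benjamini-Hochberg adjustment over 18161 genes at 0.05. SEs are moderated and pool all 9 arrays, and 82 genes lacked an array's value. The fit was tested on simulated data.

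Named genes were those called under 3 scalings, above background on all 6 arrays and without clone names. The 15 widest gaps between the groups' nearest arrays were taken in each direction, and up to 3 per list. The comparison, lists and rules were chosen with earlier results of these data known. Bright genes, name families and promoter motifs were chosen after the values were seen.

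Whether arrays within a group stem from different mice or cultures is not labelled, so the p-values cover just the spread among these samples, and that spread may be technical. Their number limits the precision. The title numbers were checked for pairing: deviations of same-numbered Ctrl and T arrays correlated at 0.548, 0.119 and 0.377, so by a minimum of 0.1 the numbers pair these arrays. This rests on the data, not on a label, and Ctrl3 correlated more with T2 (0.192) than Ctrl2 did. Same-numbered arrays correlated at -0.267, -0.191 and 0.017 between Ctrl and M, and at -0.275, -0.147 and 0.023 between M and T. Alternatives changed scaling, background correction, filters, the arrays fitted, probe choice, variance model, the replicate block and the source of values. Some named genes are not reported here.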

Additional observations from a re-analysis of the deposited data

How the results depend on the processing

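All 30 genes with the widest gaps kept their direction and their side of the threshold in 19 other settings. Of all 241 named genes 159 kept their side of the threshold in every setting, and no called gene changed direction. The sort markers Ptprc (-0.29 to 0.45) and Adgre1 (-0.38 to 0.99) changed sign without passing. Median scaling and quantile normalization had served in choosing the called genes, so these 2 settings could not end a call. With the replicate number as a block over the Ctrl, T and M arrays the counts were 2970 higher and 4840 lower. That block ended the call of 2 named genes, Dars and Soat1, but the numbers did not pair M with Ctrl or T. With only the Ctrl and T arrays fitted, the block gave 3528 higher and 5726 lower, against 2990 and 4476 without the block. In this paired fit 1 named gene lost its call. Median scaling moved the counts to 5105 higher and 2619 lower, to 4743 and 1756 among genes above background on all 6 arrays, and to 94 list members lower instead of 245, because it raises every T value relative to Ctrl. Without Ctrl1 and Ctrl2 together, chosen after seeing the data, 1602 genes were higher and 1685 lower, 1346 and 1319 of those above background, and 194 and 98 list members, from 1 Ctrl array assumed to vary like the other groups, and 73 named genes lost their call. From the authors' deposited values, list members lower numbered 154 and 29 named genes lost their call; the cause was not tested. Leaving out single arrays gave 2303 to 4246 genes higher and 3167 to 5435 lower, 2013 to 3914 and 2290 to 4322 of those above background, 263 to 442 and 144 to 263 list members, and 22 to 23 of the 30 genes different from M. Slide as a random block could not be fitted, since all T arrays lie on a slide of their own. Precision is limited by 3 arrays per group, and dim probes carry the least signal over background.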
